A study of Mus musculus with 4 samples.

Results

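The genes described here are 10 transporter genes of the solute carrier (SLC) superfamily: Slc3a2, Slc7a5, Slc7a6, Slc7a11, Slc7a1, Slc1a5, Slc38a1 and Slc38a2, which serve amino acid transport in activated T cells, and the neighbouring genes Slc22a4 and Slc22a5, carriers of organic cations. They were taken by symbol from a table of 34745 mouse genes, in which all 10 were found and all 10 had enough reads to be tested. Slc22a4 was selected on its higher read counts in the mutant cultures, and Slc22a5 as its neighbour, so the comparison of genotypes is a description for these 10 genes, with sizes and errors and without p-values.

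RNA was sequenced from 4 Th17 cultures, the interleukin 17-producing subset of helper T cells, after 3 days of polarization of naive splenic CD4+ T cells from C57BL/6 mice. The wild-type (WT) genotype gave 2 libraries, named 13 and 15, and the genotype labelled Setd2-CD4 cre gave 2, named 22 and 24. The numbers are those of the sample titles, and the cell type label of the WT library titled 15 carries the number 14. Setd2 encodes the enzyme that trimethylates lysine 36 of histone H3. Cre driven by Cd4 sequences is widely used to act on genes in developing T cells, including those of the CD8 lineage. No source used here gives whether the WT mice carried Cre, how many mice gave each culture or which part of Setd2 was targeted. Nothing says that the libraries of a genotype came from separate animals, so p-values measure the spread between these libraries, which may be technical.

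Libraries held 11007343 to 12518415 counts. Levels are given in CPM, read counts scaled to library size with TMM (trimmed mean of M-values) factors. Setd2 itself stood at 184 and 176 CPM (WT) against 144 and 153 CPM (Setd2-CD4 cre). This gene-wide sum does not test for removal of single exons. Cd4 stood at 940 to 1140 CPM in the 4 libraries. Il17a, the signature Th17 cytokine gene, stood at 163 and 202 CPM (WT) against 570 and 587 CPM (Setd2-CD4 cre). Both defining genes of the labelled cell type were thus detected in each library, with Il17a higher in the mutant (log2 fold change 1.67, SE 0.13). Of 12927 genes tested with edgeR, 30.7% were past an adjusted p of 0.05, 16.2% higher and 14.5% lower in Setd2-CD4 cre. The libraries of the genotypes did not overlap for 70.7% of them.

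Activated T cells take up amino acids at high rates to make protein and to signal through the kinase complex mTORC1. SLC3A2 (CD98) is a single-pass heavy chain that brings light chains of the SLC7 family, among them SLC7A5, SLC7A6 and SLC7A11, to the cell surface, and the light chain does the transport. SLC1A5, SLC38A1 and SLC38A2 carry glutamine and other neutral amino acids, SLC7A1 carries arginine and lysine, SLC22A4 is known as a carrier of ergothioneine, a diet-derived antioxidant, and SLC22A5 carries carnitine.

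Of the 10 genes, 5 were past the threshold between genotypes, Slc22a4, Slc3a2 and Slc38a2 higher and Slc7a6 and Slc1a5 lower in Setd2-CD4 cre, beside 30.7% of all genes tested (16.2% higher, 14.5% lower). Because the genes were chosen with this comparison known, nothing is read from that count. The genotypes did not overlap for 8 of the 10, beside 70.7% of all genes. Of these, 5 were higher in Setd2-CD4 cre, beside 34.6% of all genes, and 3 lower, beside 36.1%. The genotypes overlapped for Slc7a5 and Slc7a1. The median log2 fold change was 0.23 over the 10 genes and -0.01 over all genes tested. The calls of Slc38a2, Slc7a6 and Slc1a5 were lost when WT 13 or WT 15 was left out, and that of Slc1a5 also by DESeq2. Those of Slc22a4 and Slc3a2 were not, from which nothing is read for the same reason. In bulk RNA a change in the number of cells of a type cannot be told apart from a change in RNA per cell.

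**Figure D1:**
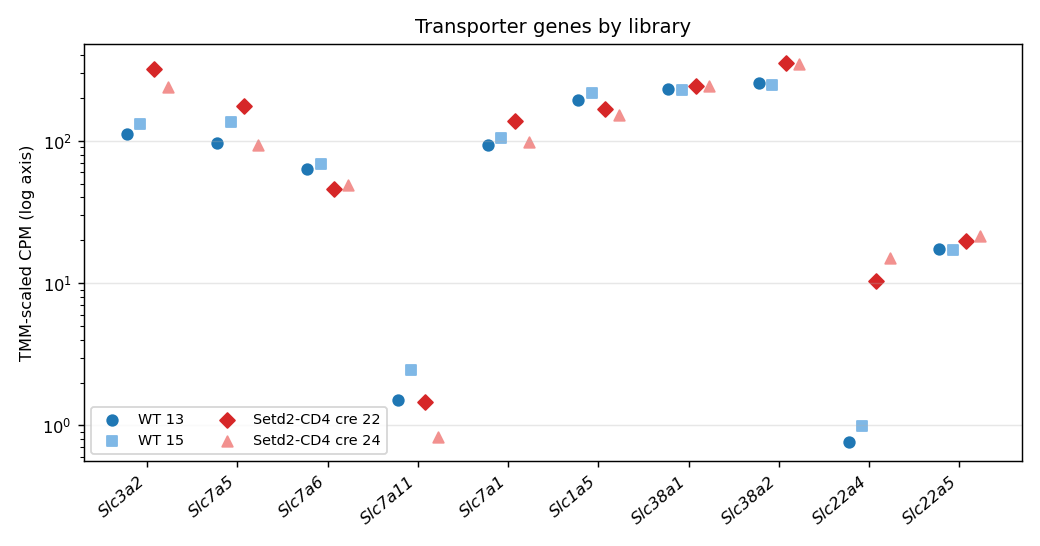
Level of each transporter gene in each of the 4 libraries, in TMM-scaled CPM on a log axis. Slc22a4 sits at 0.762 and 0.99 CPM (WT) against 10.4 and 15.0 CPM (Setd2-CD4 cre), and the libraries interleave for Slc7a5 and Slc7a1.

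Slc22a4 (ENSMUSG00000020334) lies on the minus strand of chromosome 11, chr11:53983123-54028090 in GRCm38, and Slc22a5 (ENSMUSG00000018900) on the same strand at chr11:53864542-53891660. The 2 genes are 91462 bases apart, and another carrier gene of the family, Slc22a21, lies between them on that strand, 2790 bases beyond the 3' end of Slc22a4. The 250 bases before the RefSeq start sites of both genes (GRCm38.p6, minus strand) are shown because these related genes of 1 cluster have promoter windows of similar composition and had log2 fold changes of 3.85 and 0.25. Capitals mark matches to any of 5 motifs searched on both strands, TGATGNAA (ATF4 with a C/EBP partner), CACGTG (MYC and MAX), TGACNNNGC (NRF2), AGGTCA (nuclear receptors) and GAANNTTC (heat shock factor).
Slc22a4 promoter, chr11:54028105-54028354: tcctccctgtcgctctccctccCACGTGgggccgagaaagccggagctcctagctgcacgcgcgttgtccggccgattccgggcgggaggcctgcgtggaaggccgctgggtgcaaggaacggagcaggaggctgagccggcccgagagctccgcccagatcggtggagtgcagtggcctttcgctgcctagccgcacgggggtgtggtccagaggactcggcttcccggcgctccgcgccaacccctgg
Slc22a5 promoter, chr11:53891704-53891953: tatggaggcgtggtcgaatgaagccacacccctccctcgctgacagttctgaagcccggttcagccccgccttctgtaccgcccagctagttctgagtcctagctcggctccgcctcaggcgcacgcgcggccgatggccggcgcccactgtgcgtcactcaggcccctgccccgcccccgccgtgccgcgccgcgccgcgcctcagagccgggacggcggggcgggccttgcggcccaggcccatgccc

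The Slc22a4 window held 71.2% G and C with 26 CpG pairs, and the Slc22a5 window 73.6% with 30, beside a median of 52.4% G and C over all 32851 promoter windows. The Slc22a4 window held 1 match to CACGTG, 228 bases before the start, and 6.02% of all windows held that motif. The Slc22a5 window held none of the 5. A match is a description of letters, and no binding was measured here.

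Slc22a4 had 10 and 13 counts in WT 13 and WT 15 and 107 and 164 in Setd2-CD4 cre 22 and 24. In TMM-scaled CPM the values were 0.762 and 0.99 against 10.4 and 15.0. Both mutant libraries were far above both WT libraries, and 24 was the higher of the 2. Means of 0.876 ± 0.161 and 12.7 ± 3.26 CPM (SD over 2 libraries each) gave a log2 fold change of 3.85 with an SE of 0.34, at rank 24 among 12927 genes. The ratio of the pooled counts, 271 against 23, was 14.6 relative to library size, with an exact 95% binomial interval of 9.53 to 23.4 that covers counting error only. Slc22a4 was selected on these counts, so the interval is a description and not a test. The log2 fold change lay between 3.56 and 4.09 when each library was left out.

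Slc22a5 had 228 and 226 counts (WT) against 202 and 234 (Setd2-CD4 cre). Scaled, these were 17.4 and 17.2 CPM against 19.7 and 21.5 CPM, a small separation of the genotypes with a log2 fold change of 0.25 (SE 0.16) that fell to 0.1 with library totals in place of TMM. The deposited FPKM of Slc22a4 was 0.0599 and 0.0786 of that of Slc22a5 in WT 13 and 15 and 0.723 and 0.957 of it in Setd2-CD4 cre 22 and 24. Per length of gene, the ergothioneine carrier gene was thus far below the carnitine carrier gene in WT and close to it in the mutant cultures.

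Sequence shared between the paralogs bears on these counts. Of the 50-base stretches in annotated transcripts of Slc22a5, 26.3% also occurred in other genes, mostly in Slc22a21. For Slc22a4 the share was 2.64%. How reads that fit more than 1 gene were counted is not stated, so the values of Slc22a5 and Slc22a21 are less certain than that of Slc22a4.

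Genes around the pair differed in direction and size. Of 11 protein-coding neighbours (5 on each side, and Slc22a21), 7 were tested and 1 passed, beside 30.7% of all genes tested. That gene was Csf2, which encodes the cytokine GM-CSF and fell (log2 fold change -2.02, SE 0.38, edgeR adjusted p = 0.00785). Slc22a21, which encodes another carnitine carrier, stood at 1.75 and 2.21 CPM (WT) against 4.38 and 3.3 CPM (Setd2-CD4 cre). Both mutant libraries were above both WT libraries, and the difference of 0.95 on the log2 scale (SE 0.36) did not pass (adjusted p = 0.0799 in edgeR), although it passed without Setd2-CD4 cre 24 (1.14, adjusted p = 0.0329). P4ha2, on the other side, encodes a collagen prolyl hydroxylase subunit and had 0.71 (SE 0.23, edgeR adjusted p = 0.0512), with adjusted p-values of 0.0345 to 0.0498 under 3 other settings of edgeR on all libraries and 0.00381 without Setd2-CD4 cre 22. Rad50, a DNA repair gene (0.24), Irf1, an interferon regulatory factor gene (0.15), Gm12216 (-0.58) and Pdlim4 (-0.28) had edgeR adjusted p-values of 0.117 to 0.611. Irf1 passed without Setd2-CD4 cre 24 (0.43, adjusted p = 0.00544) and Rad50 without Setd2-CD4 cre 22 (0.27, adjusted p = 0.0409). The cytokine genes Il5 and Il3, the acyl-CoA synthetase gene Acsl6 and Gm17334 had 0 to 13 counts per library and were not tested.

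**Figure D2:**
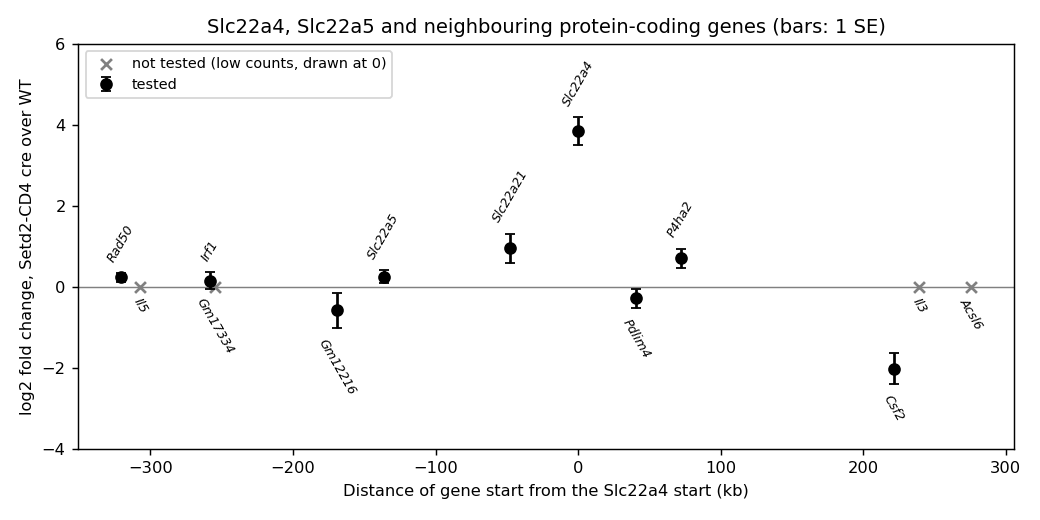
Log2 fold change of Slc22a4, Slc22a5 and the protein-coding genes around them, with bars of 1 SE, against the distance of each gene start from that of Slc22a4 in kb, negative towards lower coordinates. Slc22a4 stands at 3.85, Slc22a21 at 0.95 and P4ha2 at 0.71, and Csf2 at -2.02.

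The genes with the profile over the 4 libraries most like that of Slc22a4 were sought among 10057 tested genes with at least 5 CPM in the higher genotype, by the root mean square difference of centred log2(CPM + 0.5). They were Zfp292, a zinc finger gene (difference 0.204), Il23r, the interleukin 23 receptor gene (0.256), Plb1, a phospholipase gene (0.286), Klri2, a lectin-like receptor gene (0.317), and Zfp9 (0.360). Zfp292 went from 18.4 and 15.0 CPM in WT to 119 and 196 CPM, and like Slc22a4 was highest in Setd2-CD4 cre 24. Il23r went from 3.81 and 3.81 to 35.7 and 33.4 CPM. This likeness rests on 4 libraries. The 5 genes had log2 fold changes of 2.89 to 3.52, and a rise of similar size is enough to rank high by this measure. Slc22a4 was selected for its rise, so nothing more is read from the ranking.

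Slc3a2 (ENSMUSG00000010095, chr19:8706882-8723369, minus strand), the heavy chain gene, stood at 111 and 131 CPM (WT) against 322 and 240 CPM (Setd2-CD4 cre). Both mutant libraries were above both WT libraries. From a mean of 121 ± 14.2 to one of 281 ± 57.9 CPM (SD over 2 libraries each), the level was 2.33-fold higher, with a log2 fold change of 1.22 (SE 0.16). It ranged from 1.0 without Setd2-CD4 cre 22 to 1.42 without Setd2-CD4 cre 24. In FPKM, Slc3a2 took rank 6 and 5 of the 10 genes in WT 13 and 15 and rank 2 in both mutant libraries.

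The light chain genes differed among themselves. Slc7a5 (ENSMUSG00000040010, chr8:121881150-121907694, minus strand) encodes the leucine and large neutral amino acid carrier LAT1. It stood at 96.6 and 136 CPM (WT) against 175 and 94.2 CPM (Setd2-CD4 cre). The highest and the lowest value were both in mutant libraries, so the log2 fold change of 0.21 had an SE of 0.37. It was -0.30 without Setd2-CD4 cre 22, -0.02 without WT 13 and 0.59 without Setd2-CD4 cre 24. No difference between genotypes was detectable, and the spread between libraries does not show that there was none.

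Slc7a6 (ENSMUSG00000031904, chromosome 8, plus strand), the gene of the light chain y+LAT2, which exchanges arginine or lysine for neutral amino acids, stood at 63.9 and 68.6 CPM (WT) against 45.7 and 48.9 CPM (Setd2-CD4 cre). Both mutant libraries were below both WT libraries, by a log2 fold change of -0.49 (SE 0.12). Slc7a11 (ENSMUSG00000027737, chr3:49892526-50443614, minus strand), which encodes the cystine and glutamate exchanger xCT, had only 20 and 32 counts (WT) against 15 and 9 (Setd2-CD4 cre). Its CPM values of 1.52 and 2.44 against 1.46 and 0.825 separated the genotypes only narrowly, WT 13 from Setd2-CD4 cre 22. The log2 fold change was -0.79 (SE 0.50), and -0.42 to -1.25 when each library was left out. On the scale of log2(FPKM + 1) it was -0.08, since its FPKM was at most 0.164.

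The heavy chain and its partners were set side by side per length. The summed FPKM of the 6 light chain genes Slc7a5, Slc7a6, Slc7a7, Slc7a8, Slc7a10 and Slc7a11 was 42.2 and 53.6 (WT) against 50.8 and 34.5 (Setd2-CD4 cre). Those sums overlapped between genotypes. Slc3a2 FPKM was 0.414 and 0.389 of the sum in WT and 0.892 and 1.01 of it in Setd2-CD4 cre. Heavy chain RNA per light chain RNA thus did not overlap between genotypes, at 0.402 ± 0.018 and 0.952 ± 0.0848 (SD, n = 2 each). Slc3a2 was chosen with earlier results known, so this is a description. The level of the ratio depends on the lengths behind the FPKM. They were 6641 bases for Slc3a2 (longest annotated transcript 2813), 4309 for Slc7a5 (3517) and 3730 for Slc7a6 (3750). Slc7a5 made 55.7% and 62.2% of the light chain sum in the WT libraries, against 74.6% and 61.1% in the mutant libraries 22 and 24. Slc7a6 made 42.5% and 36.3% against 22.5% and 36.6%. The Slc7a6 share was lowest in Setd2-CD4 cre 22, while in 24 it lay within the WT range. Slc7a11 made 0.147 to 0.306% of the sum in the 4 libraries. Slc7a10 had 0, 1, 0 and 0 counts and Slc7a8 had 4, 6, 1 and 5. These levels are of RNA, and protein at the surface was not measured here.

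**Figure D3:**
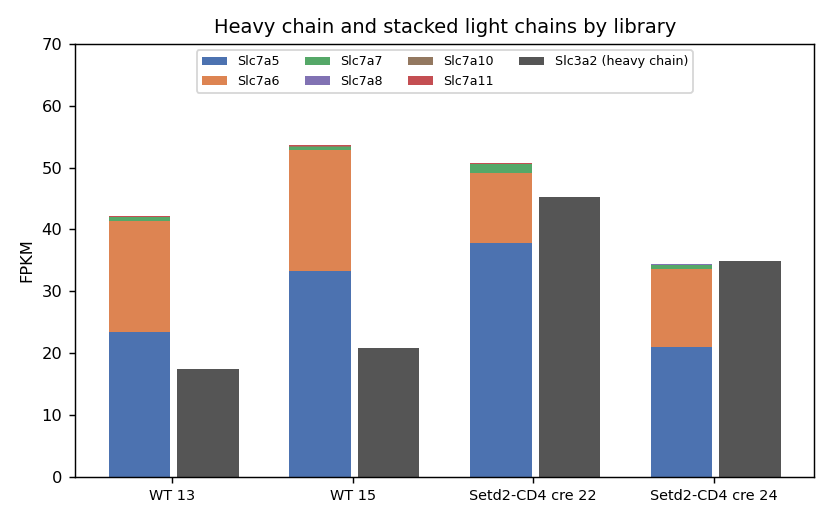
FPKM of the light chain genes, stacked, beside FPKM of the heavy chain gene Slc3a2 in each library. Slc3a2 reaches 17.5 and 20.8 FPKM (WT) against 45.3 and 34.9 FPKM (Setd2-CD4 cre), where it comes close to the height of the stacked light chains. Heights of different genes depend on the lengths behind the FPKM.

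The promoter window of Slc7a11 is shown because it was the single one of 9 windows for the members (7 of 10 symbols matched in the RefSeq table, GRCm38.p6, Slc7a1 and Slc7a6 with 2 windows each) that held the amino acid response motif TGATGNAA, a sequence through which ATF4 is known to act. Capitals mark its 2 matches, which lie on opposite strands 66 and 47 bases before the start. The motif occurred in 3.45% of all windows.
Slc7a11 promoter, chr3:50443614-50443863: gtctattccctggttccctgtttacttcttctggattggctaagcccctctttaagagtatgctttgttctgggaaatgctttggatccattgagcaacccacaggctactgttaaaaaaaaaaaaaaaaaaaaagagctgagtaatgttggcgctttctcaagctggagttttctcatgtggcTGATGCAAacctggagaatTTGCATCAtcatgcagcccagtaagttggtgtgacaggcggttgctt

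Slc7a11 was the least abundant of the 10 genes per length in each library, at 0.0506 to 0.164 FPKM. Slc7a1, Slc7a6 and Slc38a2 each held 1 match to TGACNNNGC, which 10.2% of all windows held. No window of a member held AGGTCA (14.0% of all windows) or GAANNTTC (6.69%).

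Slc7a1 (ENSMUSG00000041313, chr5:148327410-148399904, minus strand), the gene of the arginine and lysine carrier CAT1, stood at 92.9 and 104 CPM (WT) against 138 and 97.5 CPM (Setd2-CD4 cre). The genotypes overlapped, since Setd2-CD4 cre 24 lay between the WT libraries. The log2 fold change was 0.25 (SE 0.17). It was -0.01 when Setd2-CD4 cre 22 was left out and 0.48 when 24 was.

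Among carriers of glutamine and small neutral amino acids, 1 was lower, 1 higher and 1 nearly level. Slc1a5 (ENSMUSG00000001918, chr7:16781340-16798274, plus strand), the gene of the exchanger ASCT2, stood at 195 and 217 CPM (WT) against 167 and 151 CPM (Setd2-CD4 cre). Both mutant libraries were the lower, by a log2 fold change of -0.37 (SE 0.11).

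Slc38a2 (ENSMUSG00000022462, chromosome 15, minus strand), the gene of the sodium-coupled carrier SNAT2, which is known to be induced when amino acids are scarce, stood at 254 and 249 CPM (WT) against 353 and 346 CPM (Setd2-CD4 cre). The 2 libraries of each genotype lay close together and the genotypes apart, with a log2 fold change of 0.48 (SE 0.10). Its neighbour Slc38a1 (ENSMUSG00000023169, chr15:96571418-96642913, minus strand), the gene of the related carrier SNAT1, stood at 232 and 228 CPM (WT) against 242 and 245 CPM (Setd2-CD4 cre). That difference, 0.08 on the log2 scale (SE 0.10), changed sign to -0.03 under upper-quartile factors and -0.07 with library totals. The 2 genes lie on the same strand with 44478 bases and no other protein-coding gene between them. The FPKM of Slc38a2 was 1.98 times that of Slc38a1 in both WT libraries and 2.65 and 2.56 times in Setd2-CD4 cre.

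**Figure D4:**
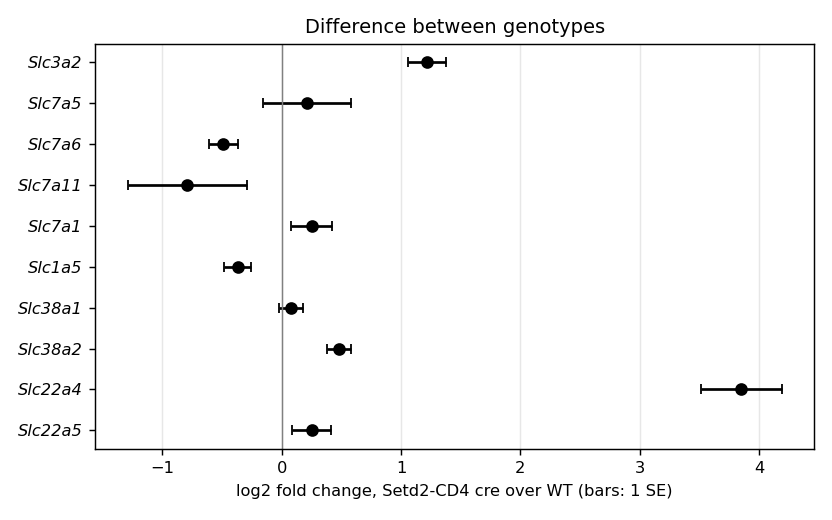
Log2 fold change of each gene, Setd2-CD4 cre over WT, with bars of 1 SE. Slc22a4 (3.85) and Slc3a2 (1.22) lie apart from the other 8, which range from -0.79 to 0.48.

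Per length, the order of the genes was led by Slc38a2 in each library, at 57.5 and 56.9 FPKM (WT) against 71.2 and 72 FPKM (Setd2-CD4 cre). Slc7a1, Slc22a5, Slc22a4 and Slc7a11 took the last 4 places in each library. Between them stood Slc7a5, Slc3a2, Slc7a6, Slc1a5 and Slc38a1, whose order changed. Slc1a5 and Slc38a1 were at 31.4 ± 2.56 and 28.8 ± 0.215 FPKM in WT, a gap of about the spread of Slc1a5, and Slc7a5, at 28.4 ± 6.96 FPKM, could not be placed against either. In Setd2-CD4 cre, Slc3a2 at 40.1 ± 7.35 FPKM overlapped Slc7a5 at 29.4 ± 11.9 FPKM. The lengths behind the FPKM, 3053 to 15696 bases, exceeded the longest GENCODE transcript for 8 of the 10 genes, so levels between genes depend on that choice of length.

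Spread between libraries of 1 genotype was a feature of some carriers that the choice of genes did not use. The 2 Setd2-CD4 cre libraries differed by 0.89 on the log2 scale for Slc7a5, a larger difference than that of 95.1% of all tested genes, and the WT libraries by 0.49, larger than 91.0%. Slc7a5 was higher in 15 than in 13 and in 22 than in 24. The differences were 0.49 in Setd2-CD4 cre and 0.17 in WT for Slc7a1 and 0.42 and 0.24 for Slc3a2, again with 22 above 24 and 15 above 13. Slc7a11, with few counts, had 0.57 and 0.54 in the same directions. Slc22a4 went the other way in Setd2-CD4 cre, at -0.51 for 22 minus 24, with 0.24 for 15 minus 13. Slc38a1 and Slc38a2 differed by at most 0.03 in either genotype. The median over all tested genes was 0.22 in Setd2-CD4 cre and 0.13 in WT.

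Most other carriers had few or no reads, and those tested differed in direction. Of 40 further genes of plasma membrane amino acid carriers, 12 had enough reads to be tested and 14 had no read in any library. Their log2 fold changes ran from -1.33 to 1.07, with a median of 0.08. None passed edgeR's threshold, beside 30.7% of all genes tested, or that of DESeq2, and 1 had an unadjusted p under 0.05. That gene, Slc7a7, which encodes the light chain y+LAT1, stood at 2.52 and 2.13 CPM (WT) against 6.82 and 3.03 CPM (Setd2-CD4 cre), with both mutant libraries above WT (1.07, SE 0.44, edgeR adjusted p = 0.0949). It passed without Setd2-CD4 cre 24 (1.55, adjusted p = 0.00122), a fit in which 5 of the carriers passed. Of 26 other organic cation and SLC22 carriers, 18 had no read and 4 were tested, with a median of 0.07. Slc22a17, a gene of a lipocalin receptor of the family, fell, with a mean of 10.3 ± 0.421 CPM in WT and 4.21 ± 0.247 CPM in the mutant (-1.29, SE 0.24, edgeR adjusted p = 0.00692), a call lost without WT 15 (0.0573).

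Of 9 tested genes of lysosomal carriers, 2 rose and 1 fell (33.3%, beside 30.7% of all genes tested), with a median log2 fold change of 0.08 beside -0.01 over all genes tested. Slc15a3, which encodes a histidine and peptide exporter of endolysosomes, rose from a mean of 16.8 ± 0.306 to one of 43.2 ± 3.05 CPM (1.36, SE 0.14, edgeR adjusted p = 0.00123). Laptm4b, whose protein is known to recruit SLC3A2 and SLC7A5 to lysosomes, rose from a mean of 11.7 ± 0.096 to one of 29.1 ± 2.65 CPM (1.31, SE 0.16, adjusted p = 0.00171). Slc36a4, a proline and tryptophan carrier gene, fell from a mean of 38.6 ± 0.362 to one of 19.7 ± 6.70 CPM (-0.97, SE 0.22, adjusted p = 0.017), a call lost without WT 13 (0.0521) and without WT 15 (0.0590).

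SLC22A5 brings in carnitine, which the cell also makes and uses to carry acyl groups. Of 10 tested genes of carnitine synthesis and acyl transfer, none rose and 1 fell, beside 30.7% of all genes tested. Log2 fold changes ran from -0.82 to 0.28, with a median of -0.10. The list's summed level was 287 to 297 CPM in the 4 libraries. The gene that fell was Cpt2, which encodes the inner carnitine palmitoyltransferase of mitochondria (-0.81, SE 0.21, edgeR adjusted p = 0.0222), and the call was lost without WT 13 (0.126) and without WT 15 (0.138).

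Enzymes that act on imported amino acids moved in both directions. Of 17 tested genes of arginine and polyamine use, 3 rose and 4 fell (41.2%, beside 30.7% of all genes tested), with a median of -0.16, and the split was 3 and 7 with library totals or upper-quartile factors. The polyamine oxidase gene Smox rose from a mean of 113 ± 10.5 to one of 327 ± 27.4 CPM (1.53, SE 0.12, edgeR adjusted p = 0.000695). Sat1, which encodes the acetyltransferase that starts polyamine breakdown, rose likewise (1.31, SE 0.14, adjusted p = 0.00123). Odc1, the gene of the enzyme that starts polyamine synthesis, rose from a mean of 577 ± 33.1 to one of 1100 ± 5.50 CPM (0.93, SE 0.12, adjusted p = 0.00186). Amd1, which encodes the enzyme supplying aminopropyl groups, fell (-0.75, SE 0.13, adjusted p = 0.00605), a call lost without WT 15 (0.0563). The number past the threshold, 7, dropped to 4 and 3 when WT 13 or WT 15 was left out, and reached 12 when the mutant library 24 was.

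Of 14 tested genes of cystine and glutathione use, 2 rose and 3 fell (35.7%, beside 30.7% of all genes tested), with a median of 0.01. Gss, the glutathione synthetase gene, rose from a mean of 37.1 ± 2.46 to one of 79.4 ± 1.40 CPM (1.10, SE 0.12, edgeR adjusted p = 0.00135), and Gpx4, a peroxidase gene that protects membrane lipids, rose (0.63, SE 0.13, adjusted p = 0.0103). Gclm, which encodes the modifier subunit of the first enzyme of glutathione synthesis, fell from a mean of 17.9 ± 0.79 to one of 8.66 ± 0.972 CPM (-1.04, SE 0.19, adjusted p = 0.00671), and Ggt1, a gamma-glutamyltransferase gene, fell (-0.91, SE 0.25, adjusted p = 0.0296). The number past the threshold, 5, was 2 without WT 13 and 1 without WT 15. The calls of Gpx4 and Ggt1 were lost in both of these fits and that of Gclm without WT 15 (adjusted p = 0.0505 to 0.121).

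Of 13 tested genes of glutamine and glutamate use, 2 rose and none fell (15.4%, beside 30.7% of all genes tested), with a median of 0.06. With library totals or upper-quartile factors 1 was higher and 1 lower. Got1, a cytosolic aspartate aminotransferase gene, was higher by 0.65 on the log2 scale (SE 0.12, edgeR adjusted p = 0.007), a call lost without WT 15 (0.0984). Of 19 tested genes of branched-chain amino acid breakdown, 5 rose and 3 fell (42.1%, beside the same 30.7%), with a median of -0.08. That balance turned to 1 higher and 5 lower with library totals or upper-quartile factors and to 0 and 5 by limma. Mut, the methylmalonyl-CoA mutase gene, fell, at 27.3 and 25.7 CPM (WT) against 9.16 and 10.9 CPM (Setd2-CD4 cre) (-1.40, SE 0.17, edgeR adjusted p = 0.00173), and Ivd, the isovaleryl-CoA dehydrogenase gene, fell (-0.80, SE 0.14, adjusted p = 0.00501). Bckdhb, a subunit gene of the branched-chain ketoacid dehydrogenase (-0.94, SE 0.23, adjusted p = 0.0206), and Hibch, a gene of valine breakdown (0.65, SE 0.15, adjusted p = 0.0154), were less stable, and both lost the call without WT 15 (0.0741 and 0.184). Bckdhb also lost it without WT 13 (0.155) and Hibch by limma on both FPKM scales (0.0577 and 0.0592), and 3 and 2 of the 19 genes were past the threshold without WT 13 and without WT 15.

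Of 37 tested genes of amino acid sensing upstream of mTORC1, 6 rose and 3 fell (24.3%, beside 30.7% of all genes tested), with a median of 0.09. The balance was 3 higher and 4 lower with library totals, 4 and 4 with upper-quartile factors, 3 and 5 by limma and 6 and 1 by DESeq2. Of the 37, 1 was past the threshold without WT 13, 1 without WT 15 and 15 when the mutant library 24 was left out. Fnip1, which encodes a partner of folliculin, rose from a mean of 156 ± 1.41 to one of 254 ± 22.6 CPM (0.70, SE 0.11, edgeR adjusted p = 0.00394). Sesn3, a sestrin gene, rose (0.66, SE 0.12, adjusted p = 0.00598), as did Lamtor3, a gene of the lysosomal scaffold (0.67, SE 0.13, adjusted p = 0.00974). Sesn2, which encodes a leucine sensor, fell from a mean of 105 ± 2.70 to one of 72.3 ± 4.79 CPM (-0.54, SE 0.11, adjusted p = 0.0108). The calls of Sesn3, Lamtor3 and Sesn2 were lost without WT 13 and without WT 15 (adjusted p = 0.0512 to 0.109).

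Of 17 tested genes that control the transcription or turnover of carriers, 4 rose and none fell (23.5%, beside 30.7% of all genes tested), with a median of 0.09. The split was 3 higher and 1 lower with library totals or upper-quartile factors, and 3 and 2 by limma. Atf4, the factor gene of the amino acid response, stood at 248 and 256 CPM (WT) against 766 and 605 CPM (Setd2-CD4 cre), with both mutant libraries far above WT (1.45, SE 0.14, edgeR adjusted p = 0.00106). Atf3 (1.15, SE 0.18, adjusted p = 0.00411) and Ddit3 (0.93, SE 0.15, adjusted p = 0.00401), stress-induced factor genes, rose too. Nedd4, a ubiquitin ligase gene, had 0.40 (SE 0.11, adjusted p = 0.0298), a call lost under upper-quartile factors (0.0768), library totals (0.126), without WT 13 (0.177), without WT 15 (0.265) and by limma on both FPKM scales (0.218 and 0.220). Myc (-0.45, SE 0.43, edgeR adjusted p = 0.476) and Nfe2l2, the NRF2 gene (0.18, SE 0.10, adjusted p = 0.215), did not pass. Myc, which encodes a factor known to raise amino acid carriers in activated T cells, stood at 30.7 and 44.7 CPM (WT) against 37.8 and 17.3 CPM (Setd2-CD4 cre), so the genotypes overlapped. It had 0.01 when Setd2-CD4 cre 24 was left out and -1.11 when 22 was (adjusted p = 0.0317).

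**Figure D5:**
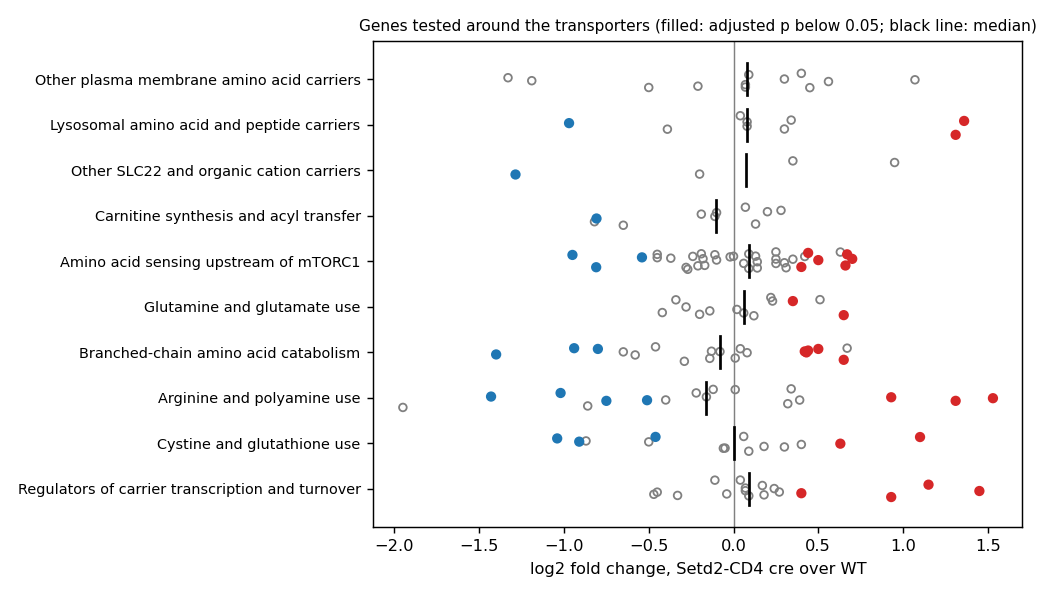
Log2 fold change of each tested gene in 10 lists around the transporters, with genes past the threshold filled, higher in red and lower in blue, and the median of each list as a black line. List medians lie between -0.16 and 0.09.

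Lists of markers for cell types other than Th17 cells also separated the genotypes. Past the threshold of edgeR were 11 of 13 B cell markers, each higher in the mutant libraries, and the list summed to 266 and 227 against 768 and 540 CPM. Dendritic cell markers summed to 53.8 and 54.8 against 109 and 96.5 CPM (3 of 5 tested rose, none fell), gamma-delta T cell markers to 19.4 and 17.1 against 72.5 and 60.9 CPM (2 of 6 rose, none fell), and CD8 T and NK cell markers to 74.6 and 94.6 against 199 and 107 CPM (2 of 5 rose, none fell). The gamma-delta markers that rose, named after their values were seen, were Blk, a kinase gene also expressed in B cells (3.43 and 3.12 against 38.5 and 23.9 CPM), and 5830411N06Rik (3.05 and 3.81 against 20.7 and 27.0 CPM). Its receptor genes Trdc (0.07), Tcrg-C1 (0.82), Tcrg-C2 (-0.69) and Trgv2 (-0.72) were not past the threshold. Myeloid markers summed to 28.2 to 32.9 CPM with none of 5 past the threshold by edgeR or DESeq2 (0 at an unadjusted p under 0.05). Erythroid markers summed to 0.458 to 1.83 CPM, and none of the 8 had enough reads to be tested. The markers Mpo, Siglech and Alas2 had no read. T cell markers summed to 3860 to 4310 CPM, and 4 of 12 rose and 4 fell (66.7%). The B cell, dendritic cell, CD8 T and NK cell and gamma-delta T cell sums were each highest in Setd2-CD4 cre 22. Of the 10 transporter genes, 6 were higher in Setd2-CD4 cre 22 than in 24 and the others lower. The share over all genes tested was not taken, so nothing is read from that count. The part of other cell types in the transporter results was not tested.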

How the data were processed

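Per the file headers, the table the authors deposited holds a read count and an FPKM value for each gene and library. Bowtie2 and RSEM, GRCm38.p6 and mm10 are named without versions or roles in the submitters' processing notes. No source used here gives the gene models, strand use, rounding or treatment of shared reads. The deposited FPKM followed from count, library sum and 1 length per gene (largest difference 0.00979% over 46971 values).

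Counts were tested with edgeR 4.0.16 in R 4.3.3 (TMM factors, filterByExpr, robust quasi-likelihood fit, Benjamini-Hochberg adjustment over 12927 genes, threshold 0.05). SEs are the log2 fold change over the root of the F statistic. A count of 0 allows 3 counts, which is 0.24 to 0.273 CPM. DESeq2 1.42.0 and limma 3.58.1 on log2(FPKM + 1) and log2(FPKM + 0.1), other factors and filters and leaving out each library were alternatives. With 1 library left in a genotype, that library is assumed to vary like the others. Libraries of a genotype differed by more than counting noise (chi-square per degree of freedom 8.27 and 17.4).

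The 10 genes and all lists were chosen with earlier results of these data known. In each list the up to 4 genes with the smallest p-values past the threshold were named (if none passed, the 1 with the smallest), with Atf4, Myc, Nfe2l2, Slc22a21, the neighbours and the 5 genes most like Slc22a4. Of the list symbols, 204 matched directly and 4 by a RefSeq synonym, and all 66 markers matched. Some genes of this rule are not reported here. Coordinates are from GENCODE M21 (GRCm38), identical to the deposited loci for 8 of the 10 genes. Slc7a6 and Slc38a2 differed at their ends and are given by chromosome. Promoters are RefSeq sequences, limited to the 250 bases before the start.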

Additional observations from a re-analysis of the deposited data

How the results depend on the processing

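No paired analysis was possible because the genotypes share no replicate number. Leaving out either WT library cost most calls. Genes higher ranged from 718 to 3068 and genes lower from 564 to 2903 over the 4 fits that left out a library (2094 and 1880 with all). Members past the threshold ranged from 2 to 6 (5 with all), and members without overlap from 8 to 10 (8 with all). The number of members without overlap cannot fall when a library is left out, so its range does not measure stability. The Slc7a5 share of light chain FPKM ranged from 55.7 to 62.2% in WT and from 61.1 to 74.6% in Setd2-CD4 cre. The number past the threshold ranged from 1 to 15 for amino acid sensing, 3 to 12 for arginine and polyamine use, 2 to 11 for branched-chain breakdown, 0 to 2 for carnitine, 1 to 6 for cystine and glutathione, 0 to 4 for glutamine, 2 to 4 for lysosomal carriers, 0 to 2 for other SLC22 carriers, 0 to 5 for other amino acid carriers, 3 to 6 for regulators and 1 to 3 for the neighbours. Among markers it ranged from 11 to 11 for B cells, 2 to 3 for CD8 T and NK cells, 2 to 4 for dendritic cells, 2 to 2 for gamma-delta T cells, 0 to 1 for myeloid cells, 0 to 0 for erythroid cells and 3 to 12 for T cells. Library totals gave 1409 genes higher and 2879 lower, upper-quartile factors 1565 and 2617, and limma-trend 1267 and 2746 on log2(FPKM + 1) and 1269 and 2674 on log2(FPKM + 0.1). These settings moved the median of all genes to -0.16, -0.12, -0.117 and -0.158, so the share of calls that were higher fell with them. Limma-trend also gave 2 carnitine genes with both pseudocounts (1 in edgeR) and 5 branched-chain genes with both (8 in edgeR). With no filter 1 myeloid marker passed. The neighbours had 2 calls with DESeq2 size factors in edgeR, with no filter and with the filter of 10 counts (1 under the other settings on all 4 libraries). Irf1 changed sign to -0.01 with library totals, -0.02 and -0.03 by limma-trend with pseudocounts 1 and 0.1 and -0.18 without Setd2-CD4 cre 22 (0.43 without 24), and Myc to 0.01 without Setd2-CD4 cre 24 (-1.11 without 22). The cause was not tested. Slc22a4 had 1.91 on log2(FPKM + 1) and 3.32 on log2(FPKM + 0.1), scales that compress low levels. For Slc22a4 in WT and for Slc7a11, 9 to 32 counts per library limit the precision.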
